A study of Mus musculus with 9 samples.

Results

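Cell division is driven by cyclin-dependent kinase 1 (CDK1) with its A-type and B-type cyclins, which switch on the kinases, motors and chromosome proteins of mitosis. The spindle checkpoint holds cells before anaphase until every kinetochore, the protein plate on each centromere, is attached to the spindle. The anaphase-promoting complex (APC/C) then marks securin and cyclin B for destruction, which frees separase to split the sister chromatids. Transcripts of these genes are made late in the cell cycle, and many of their promoters carry a CHR element and CCAAT boxes. The DREAM complex represses such promoters in resting cells and early in the cycle, and B-MYB and FOXM1 act on them with the same MuvB core when they are transcribed. The genes described here are 43 listed mitosis genes of the mouse, matched by symbol and Ensembl gene ID among the 54838 genes counted. They fall into 9 classes: 11 cyclins, CDK1 and mitotic entry kinases, 5 spindle checkpoint genes, 6 centromere and kinetochore genes, 3 genes of the chromosomal passenger complex, 5 kinesins, 4 genes of spindle assembly and cytokinesis, 3 of chromosome structure, 4 of the APC/C and chromatid separation, and the pair Foxm1 and Mki67. The list is a list of names and uses no measured value as a threshold. This list and the further lists below were chosen with earlier results of these data known. Their counts are therefore a description, not independent support for one another.

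RNA was sequenced from 2 kinds of mouse cells of strain C57BL/6: the melanoma line B16F10, grown for 4 days in 100 mm plates, and CD8+ T cells taken with a CD8a+ isolation kit from the spleens of adult mice. Cells of each kind stood for 5 h in culture medium without hypochlorous acid (HOCl) or with 600 µM of it. HOCl is the oxidant that neutrophils make with myeloperoxidase. B16F10 gave 3 libraries without and 3 with HOCl. T cells gave 2 libraries without and 1 with it. No agent or allele other than HOCl separated the groups, and B16F10 is a single cell line. Nothing in the labels says that replicates were separate cultures or animals. A p-value here sets the difference between groups against the spread of libraries within a group, and that spread may be technical. Levels are counts per M gene counts of the library (CPM).

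B16F10 libraries held 45.9 to 61.3 M counts, the T cell library with HOCl 12.8 M and those without it 49.9 and 52.1 M. The melanocyte markers Mlana, Pmel, Tyr, Dct, Tyrp1, Mitf, Sox10 and Mc1r were detected in every B16F10 library and summed to 24160 to 25194 CPM there. The 9 T cell markers summed to 3153 and 3005 CPM in the untreated T cell libraries. In B16F10 they summed to 5.23 to 6.65 CPM in 5 libraries, with at most 1 of the 9 at 0, and to 27.5 CPM in HOCl replicate 3, with none at 0. The T cell HOCl library stood apart: its melanocyte markers summed to 6759 CPM, against 102 and 25.7 CPM in untreated T cells, its T cell markers to 613 CPM, and 37.4% of its counts were mitochondrial, against 0.5003 to 2.11% elsewhere. Untreated B16F10 replicate 1 also stood apart: a chi-square of counts per degree of freedom was 25.9 and 23.6 against replicates 2 and 3, and 4.74 between those. It was 447 between the 2 untreated T cell libraries. Among the mitosis genes untreated B16F10 replicate 1 differed by exon length, which here is all annotated exon bases of a gene. The 21 shorter genes (1531 to 4934 bases of exon) had a median log2 ratio of replicate 1 to the mean of replicates 2 and 3 of 0.06, and the 21 longer ones (5386 to 15433 bases) of -0.11. The part of these differences in the results below was not tested, and results are given without these libraries where a call turns on them.

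In untreated B16F10 cells all 43 genes were well counted, with at least 991 counts for every gene in each of the 6 B16F10 libraries. Per kilobase of exon, the highest level was that of Cdc20, the activator of the APC/C, with 71.9 CPM per kilobase. Ccnb2 (cyclin B2) followed with 54.8, Top2a (DNA topoisomerase II alpha, which untangles sister chromatids) with 52.5, Plk1 (polo-like kinase 1) with 46.5 and Foxm1 with 42.2 CPM per kilobase. At the other end stood Cdc25c, a phosphatase that activates CDK1, with 4.52 CPM per kilobase, then Ttk and Knl1 with 5.84 CPM per kilobase each. As plain CPM the order was led by Top2a, at 449, 488 and 483 CPM, and Mki67, the gene of the Ki-67 antigen, at 316, 412 and 396 CPM. The 43 genes together summed to 5265 ± 112 CPM (SD, n = 3).

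Untreated B16F10 cells held far more of these transcripts than untreated splenic CD8+ T cells. Of the 43 genes, 38 were higher in B16F10 and 3 lower at an adjusted p under 0.05, where 35.8% of the 18352 genes tested were higher and 35.4% lower. The median log2 fold was 4.68, which is 25.6-fold, against -0.02 over all genes tested. Cdk1 stood at 191, 174 and 173 CPM in B16F10 and at 2.30 and 1.17 CPM in T cells. Cdc25c stood at 23.1, 22.0 and 21.6 CPM in B16F10 and at 0.160 and 0.192 CPM in T cells, the widest gap of the 43 on the log2 scale, 6.71. In these bulk libraries fewer dividing cells and less RNA per dividing cell cannot be told apart.

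A few of the 43 genes went the other way. Smc4, a subunit of the condensin complexes that fold chromosomes, stood at 1018 and 1663 CPM in T cells against 137, 139 and 136 CPM in B16F10, a log2 fold of -3.55 (adjusted p = 0.000131). Its partner Smc2 was higher in B16F10, at 192, 211 and 201 CPM against 47.1 and 46.6 CPM. Cenpa, the histone that marks centromeres, had 108 and 99.9 CPM in T cells and 74.6, 67.5 and 70.7 CPM in B16F10, and Pttg1, which encodes securin, had 30.6 and 29.3 CPM against 25.6, 21.1 and 22.0 CPM. The call of Pttg1 was lost without untreated B16F10 replicate 2 (adjusted p = 0.0737) or 3 (0.0720), without TMM scaling (0.0809) and with no filter on low counts (0.0743). Cdc25b (159 and 65.8 CPM in T cells, 72.6, 72.8 and 75.7 CPM in B16F10) and Ndc80 (29.8 and 34.2 against 44.8, 41.8 and 39.9 CPM) did not pass the threshold. Without untreated T cell replicate 2 they did, Cdc25b lower in B16F10 with a log2 fold of -1.24 and Ndc80 higher with 0.37. Cdc25b also passed by the DESeq2 test (-0.84, adjusted p = 0.0275) and with no filter (-0.71, adjusted p = 0.0333). Bub3 was higher in B16F10 with a log2 fold of 0.73 (adjusted p = 0.0361), and this call was lost without any 1 of the untreated B16F10 libraries (adjusted p 0.127 to 0.189).

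**Figure D1:**
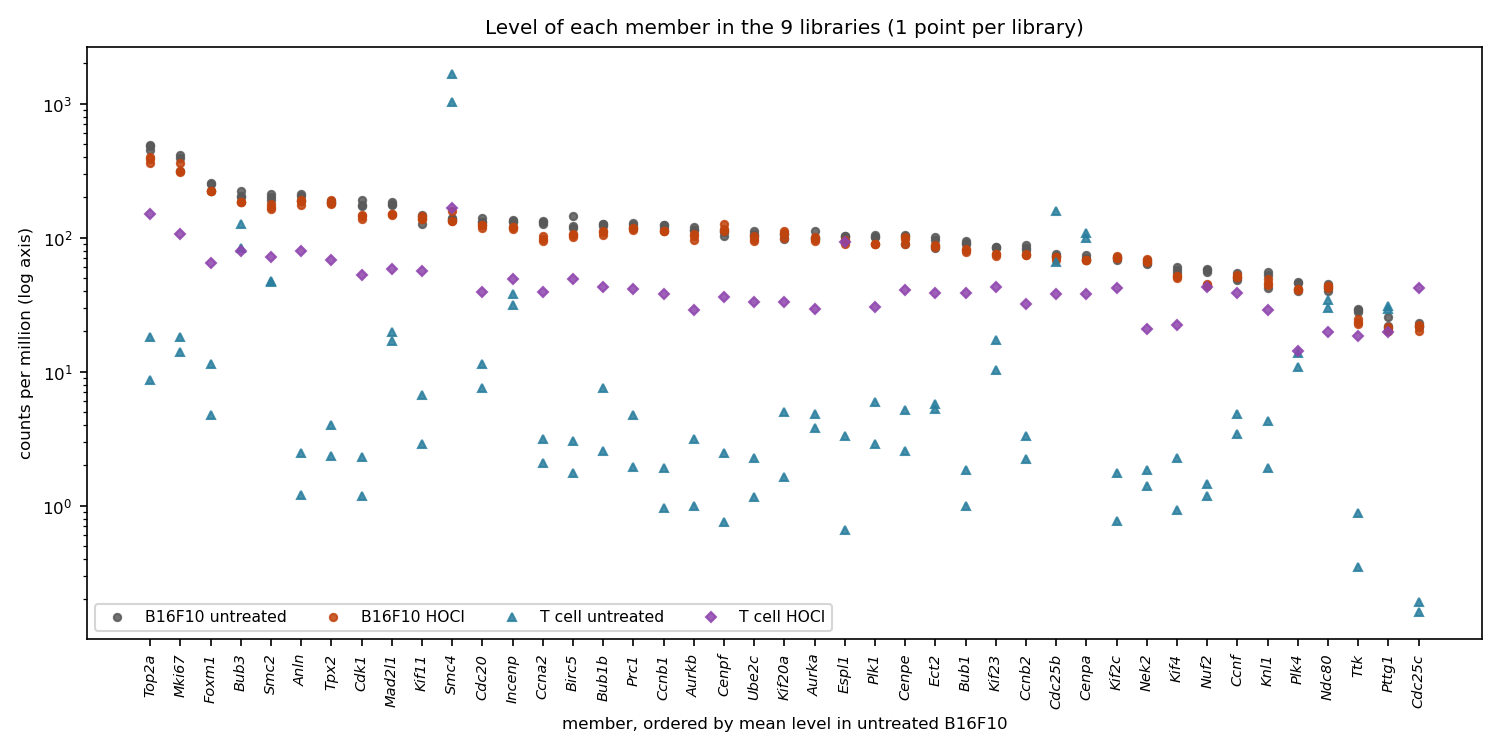
CPM of the 43 mitosis genes in each of the 9 libraries on a log axis, 1 point per library, ordered by mean level in untreated B16F10. The B16F10 libraries lie close together for every gene, most untreated T cell points lie far below them, and Smc4 lies above at 1018 and 1663 CPM.

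After HOCl, part of the mitosis genes fell by modest amounts in B16F10 cells and none rose past the threshold. Of the 43 genes, 20 fell and 0 rose at an adjusted p under 0.05, where 13.5% of the 16082 genes tested fell and 14.7% rose. The median log2 fold change of the 43 was -0.15, a fold of 0.901, against -0.01 over all genes tested, and single genes ran from -0.42 (Ccna2) to 0.08 (Cenpf). In 22 of the 43 genes all 3 HOCl libraries lay below all 3 untreated ones, as they did for 18.4% of all genes tested. Summed over the 43 genes, the level was 5140, 5357 and 5297 CPM untreated and 4646, 4750 and 4841 CPM after HOCl, so the groups did not overlap. By the DESeq2 test 22 of the 43 genes fell and 0 rose, where 2160 of all genes fell and 2411 rose. At an unadjusted p under 0.05, 26 of the 43 fell and 0 rose, and the share of all genes was not counted.

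The changes were small, and the calls depended on the test. No gene of the 43 passed a test against a 1.5-fold change, by which 45 of all genes fell and 28 rose. None passed when all 9 libraries were fitted together, where 26 of all genes fell and 11 rose. That fit takes its spread from the T cell libraries as well, and it also changes the genes tested and the scaling. Leaving out 1 library at a time gave 12 (without HOCl replicate 1) to 29 genes (without untreated replicate 1) that fell. Calls of 11 of the 20 genes held in each of these 6 fits: Ccna2, Cdk1, Plk1, Bub1b, Bub3, Mad2l1, Ttk, Nuf2, Birc5, Top2a and Smc2. The other 9 calls, of Ccnb1, Ccnb2, Bub1, Aurkb, Incenp, Kif23, Kif4, Cdc20 and Espl1, were each lost in at least 1. In the authors' deposited table a total of 22 of the 43 genes had a negative log2 fold change with an adjusted p under 0.05 and 0 a positive one, and these held all 20 genes that fell here with Ube2c and Mki67 added. That table names its groups by number alone, so its sign was taken as deposited.

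**Figure D2:**
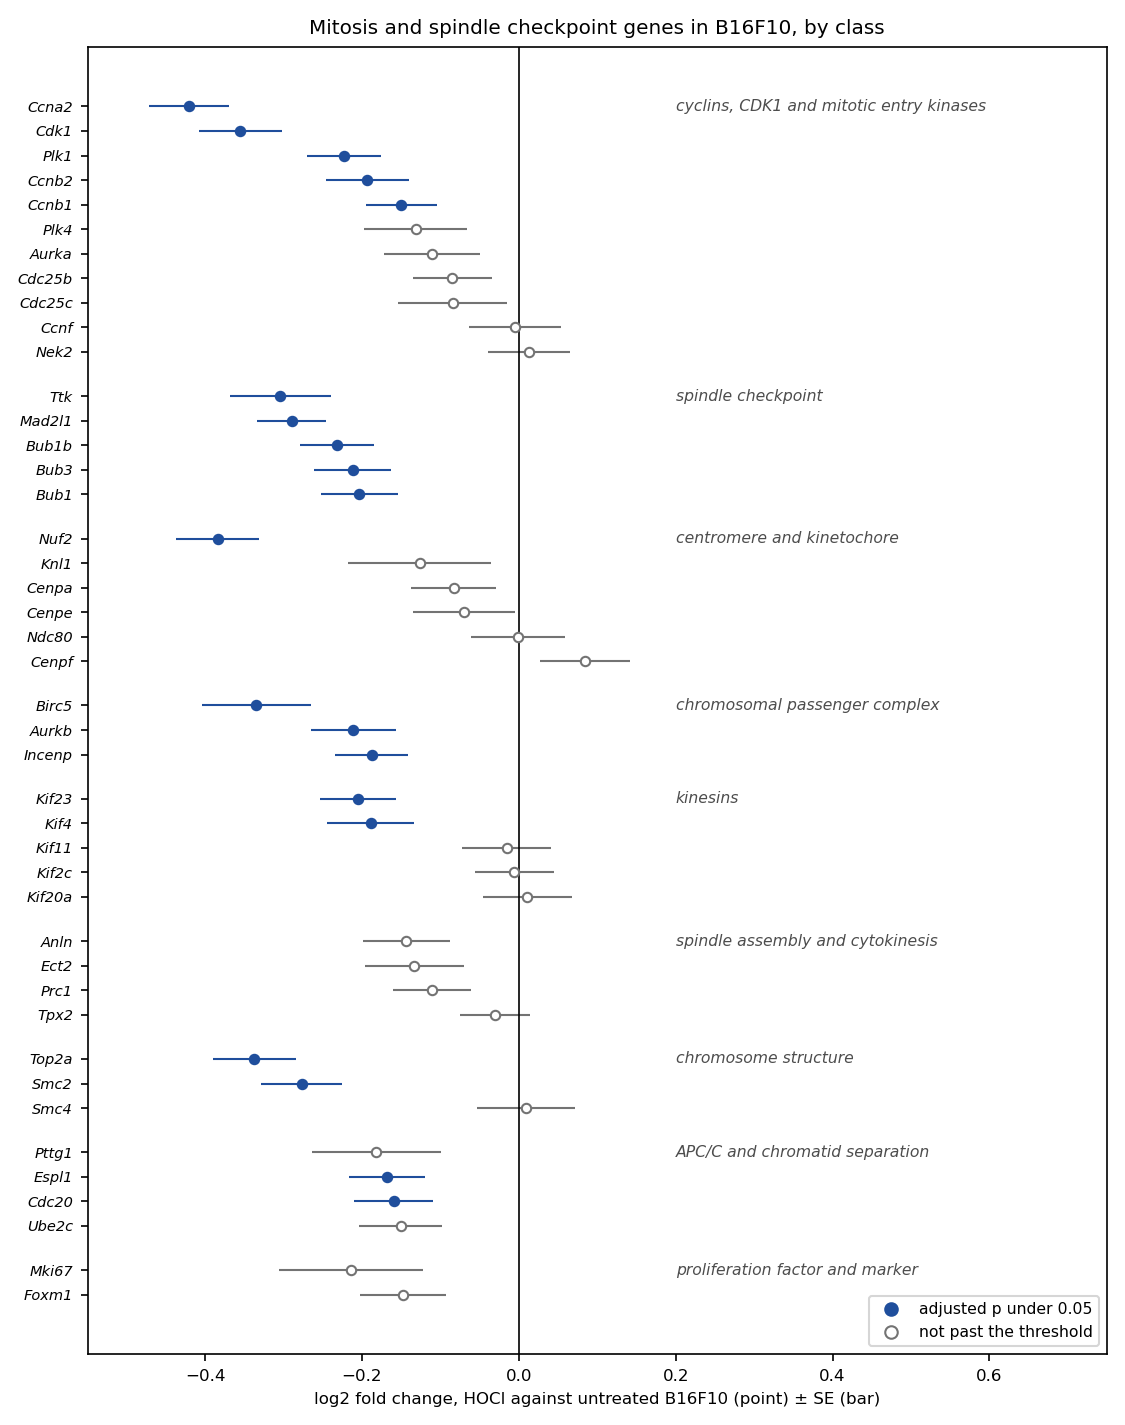
Log2 fold change of each of the 43 genes, HOCl against untreated B16F10 (points) with its standard error (bars), by class. Filled points passed an adjusted p of 0.05: 20 genes, each below 0, among them all 5 spindle checkpoint genes and all 3 of the chromosomal passenger complex. Of all genes tested 13.5% fell.

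Promoter sequences show what these genes have in common that the list did not use. RefSeq windows on GRCm38.p6, from 250 bases before to 50 bases after a gene's start, were found for 35 of the 43 genes (38 windows, since 3 genes have 2). The motifs searched on both strands were the CCAAT box CCAAT, the core of the CHR element TTTGAA, and the E2F core in the forms TTTCCCGC, TTTCGCGC, TTTGCCGC and TTTGGCGC. In the windows of these genes no match of one motif shared bases with a match of another. The CHR core was in 73.7% of their windows against 17.9% of all 32851 windows of that length, and the CCAAT box in 76.3% against 37.4%. Both stood in 63.2% of their windows against 6.95% of all. The E2F core was in 2.63% against 2.26% of all, and in 40.9% of 22 windows of S phase genes, 13.6% of which held the CHR core. A match is a description of letters, not of a bound site.

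The stretches that follow are the 150 bases before the RefSeq start, 5′ to 3′ on the gene's strand, in lower case with CCAAT boxes, CHR cores and E2F cores (or their reverse complements) in capitals. Cdk1, Top2a, Ccnb2, Cdc20 and Nuf2 are shown because they fell, and Mki67, Ccnf and Kif11 because they carry the same motifs and did not pass the threshold.
Cdk1, chr10:69352913-69353062, minus strand: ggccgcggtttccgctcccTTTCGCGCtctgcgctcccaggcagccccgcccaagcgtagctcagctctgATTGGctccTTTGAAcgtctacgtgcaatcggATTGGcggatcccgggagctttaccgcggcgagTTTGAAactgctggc
Top2a, chr11:99024190-99024339, minus strand: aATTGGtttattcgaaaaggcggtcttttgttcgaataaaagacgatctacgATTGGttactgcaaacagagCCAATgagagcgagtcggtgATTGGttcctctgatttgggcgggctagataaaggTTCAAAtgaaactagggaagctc
Ccnb2, chr9:70421555-70421704, minus strand: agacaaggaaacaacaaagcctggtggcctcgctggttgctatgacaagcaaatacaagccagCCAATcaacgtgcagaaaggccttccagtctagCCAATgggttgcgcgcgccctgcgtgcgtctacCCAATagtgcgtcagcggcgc
Cdc20, chr4:118437344-118437493, minus strand: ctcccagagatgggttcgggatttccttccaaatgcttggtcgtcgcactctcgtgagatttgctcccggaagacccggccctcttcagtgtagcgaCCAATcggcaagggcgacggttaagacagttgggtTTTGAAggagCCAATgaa
Nuf2, chr1:169531465-169531614, minus strand: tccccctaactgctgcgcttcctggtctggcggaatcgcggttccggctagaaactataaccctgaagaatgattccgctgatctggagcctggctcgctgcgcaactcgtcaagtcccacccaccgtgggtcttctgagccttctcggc
Mki67, chr7:135716380-135716529, minus strand: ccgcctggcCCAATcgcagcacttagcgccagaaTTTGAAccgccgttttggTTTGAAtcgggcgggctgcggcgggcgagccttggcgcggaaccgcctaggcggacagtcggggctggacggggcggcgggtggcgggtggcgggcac
Ccnf, chr17:24251410-24251559, minus strand: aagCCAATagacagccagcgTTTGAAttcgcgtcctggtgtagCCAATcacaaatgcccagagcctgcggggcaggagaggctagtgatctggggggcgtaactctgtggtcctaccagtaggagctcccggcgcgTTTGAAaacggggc
Kif11, chr19:37376232-37376381, plus strand: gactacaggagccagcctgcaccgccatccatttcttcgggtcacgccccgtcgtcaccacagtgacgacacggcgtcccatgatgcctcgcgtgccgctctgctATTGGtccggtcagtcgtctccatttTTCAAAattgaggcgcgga

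Cdk1 carries a CHR core at -15 to -10 from the start with a CCAAT box at -48 to -44, and it is the gene of the 35 whose window also held an E2F core, at -131 to -124. Cdk1 holds a second CHR core at -71 to -66 and further CCAAT boxes at -80 to -76 and -208 to -204. Kif11, which did not pass the threshold, has 1 CHR core, at -19 to -14, and 1 CCAAT box, at -45 to -41. Ccnb2 has CCAAT boxes at -87, -54 and -21, and its nearest CHR core lies past the start, at 5 to 10. Nuf2 held none of the 3 motifs in its window and was among the genes lowered most. Over the 35 genes, 12 of 25 with a CHR core fell (median log2 fold change -0.16) and 5 of 10 without it (-0.17). With both motifs 12 of 21 fell (-0.19), and of the rest 5 of 14 (-0.14). No test was run on these counts.

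**Figure D3:**
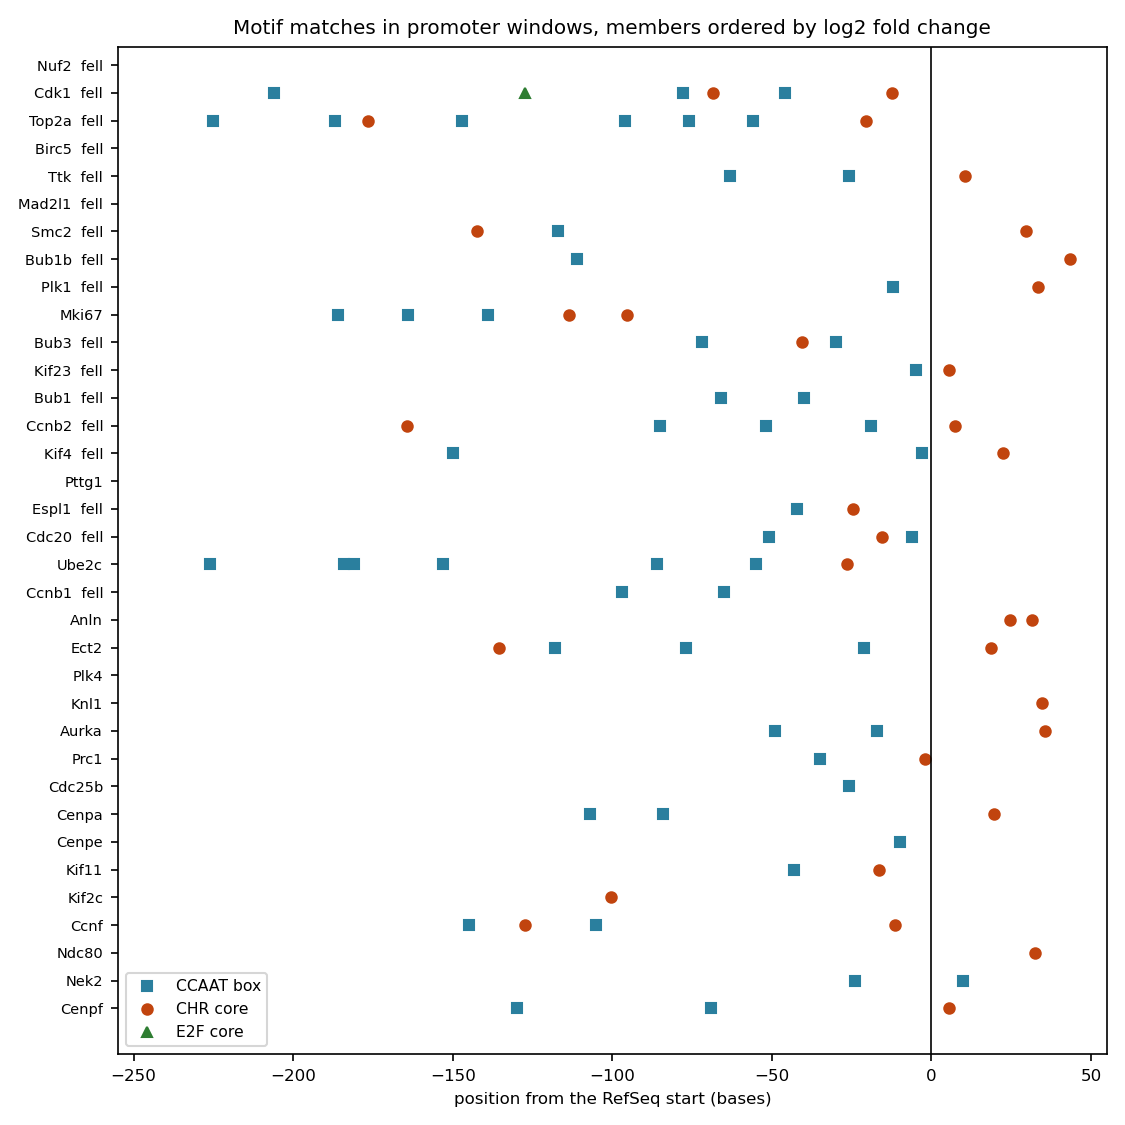
Matches of the CCAAT box, CHR core and E2F core in the promoter windows of 35 mitosis genes, by distance in bases from the RefSeq start (1 window per gene, the one with the lower coordinate where there are 2), ordered by log2 fold change in B16F10. CCAAT boxes and CHR cores gather near the start in genes that fell and in genes that did not, and 5 genes have no match.

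Among the cyclins and entry kinases 5 of 11 genes fell and none rose, with a median log2 fold change of -0.13. Beside the counts of this class and those below stand 13.5% of all genes tested that fell and 14.7% that rose. For 18.4% of them all 3 HOCl libraries lay below all 3 untreated ones. The same 6 libraries gave the calls, so groups that do not overlap are no separate support for a call. Ccna2 (ENSMUSG00000027715, chr3:36564865-36572150 on GRCm38), whose product cyclin A2 works in S phase and at mitotic entry, stood at 126, 132 and 132 CPM untreated and at 98.3, 103 and 94.9 CPM after HOCl. It was 25.3% lower (log2 fold change -0.42 ± 0.05 SE, adjusted p = 0.000123), the largest drop of the 43, with wide space between the groups. Cdk1 (ENSMUSG00000019942, chr10:69335146-69352938) stood at 191, 174 and 173 CPM untreated and at 144, 146 and 138 CPM after HOCl, with every treated library lower. Its level was 21.8% lower (-0.36 ± 0.05, adjusted p = 0.000477). Plk1 (chr7:122159439-122169873), the kinase that matures centrosomes and removes cohesin, had 105, 101 and 101 CPM untreated and 89.3, 89.1 and 89.7 CPM after HOCl, 14.3% lower (-0.22 ± 0.05, adjusted p = 0.00411). The treated Plk1 values lay within 1 CPM of each other.

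The B-type cyclins, which carry CDK1 activity through mitosis, also fell, by smaller folds than Ccna2; that difference was not tested. Ccnb2 had 88.4, 80.2 and 83.0 CPM untreated and 74.6, 74.2 and 75.6 CPM after HOCl (-0.19 ± 0.05, adjusted p = 0.0168). Ccnb1 had 118, 123 and 125 CPM untreated and 112, 111 and 113 CPM after HOCl (-0.15 ± 0.05, adjusted p = 0.0283). In both cyclins the groups did not overlap. The Ccnb2 call was lost without any 1 of the HOCl libraries (adjusted p 0.0580 to 0.0737), that of Ccnb1 without any 1 of them or without untreated replicate 2 or 3 (0.0812 to 0.114) with no filter (0.0542) and without TMM scaling (0.0654). The class count was then 3 without any 1 of the HOCl libraries.

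The other 6 entry genes did not pass the threshold. Ccnf, an F-box cyclin of the SCF ubiquitin ligase, had 49.9, 48.0 and 54.1 CPM untreated and 52.6, 51.2 and 50.6 CPM after HOCl, with the groups overlapping throughout (-0.00 ± 0.06, adjusted p = 0.960). Aurka, the kinase of spindle poles, had 112, 97.9 and 99.9 CPM against 98.1, 101 and 93.7 CPM (-0.11, adjusted p = 0.204), with untreated replicate 1 above the other 5 libraries. The CDK1-activating phosphatases Cdc25b and Cdc25c had log2 fold changes of -0.08 each, the centrosome kinase Nek2 of 0.01. Plk4, which starts centriole copying, had 39.9, 46.6 and 45.9 CPM against 41.5, 40.5 and 41.0 CPM. Its -0.13 (adjusted p = 0.161) became -0.20 (adjusted p = 0.00415) without untreated replicate 1. With other single libraries left out its adjusted p reached 0.413.

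All 5 spindle checkpoint genes fell, beside 13.5% of all genes tested, with a median log2 fold change of -0.23. In each of them all HOCl libraries lay below all untreated ones, as they did for 18.4% of all genes tested. Ttk, the MPS1 kinase that starts checkpoint signalling at kinetochores, had 29.5, 29.0 and 27.7 CPM untreated and 22.7, 23.6 and 24.9 CPM after HOCl, 19.0% lower (-0.30 ± 0.06, adjusted p = 0.00410). Mad2l1 (ENSMUSG00000029910, chr6:66535390-66547220), which encodes MAD2, the protein that binds and holds CDC20, had 175, 184 and 177 CPM untreated and 147, 149 and 151 CPM after HOCl. It was 18.2% lower (-0.29 ± 0.04, adjusted p = 0.000554), a gap several times the spread within either group. Bub1b, the gene of BUBR1, had 123, 126 and 125 CPM against 104, 111 and 109 CPM (-0.23 ± 0.05, adjusted p = 0.00329). Bub3, the partner that brings BUBR1 and BUB1 to the kinetochore, had 222, 203 and 202 CPM against 185, 184 and 183 CPM (-0.21 ± 0.05, adjusted p = 0.00744). Untreated replicate 1 was the highest of the Bub3 libraries, and the drop without it was still past the threshold. Bub1, the kinase that marks centromeres for shugoshin, had 89.1, 94.4 and 91.0 CPM against 78.6, 82.9 and 81.5 CPM (-0.20 ± 0.05, adjusted p = 0.00911), a call lost without HOCl replicate 1 (adjusted p = 0.0600).

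Of the 6 centromere and kinetochore genes Nuf2 fell and the other 5 did not pass the threshold. This share, 16.7%, was near the 13.5% of all genes tested. Nuf2 (ENSMUSG00000026683, chr1:169497934-169531464), a subunit of the NDC80 complex that grips microtubules, had 55.1, 56.9 and 58.0 CPM untreated and 44.9, 44.3 and 43.5 CPM after HOCl, 23.4% lower (-0.38 ± 0.05, adjusted p = 0.000266). Ndc80, its direct partner in that complex, had 44.8, 41.8 and 39.9 CPM untreated and 43.3, 42.0 and 43.7 CPM after HOCl, with overlapping groups (-0.00 ± 0.06, adjusted p = 0.993). So of 2 genes for parts of the same rod, 1 was lower in every treated library and the other was not; the difference between them was not tested. Cenpf, a large protein of the outer kinetochore, had 103, 110 and 115 CPM against 112, 116 and 125 CPM (0.08 ± 0.06, adjusted p = 0.304), the highest fold change of the 43. Cenpa had -0.08 (adjusted p = 0.278). Cenpe, a kinetochore motor, and Knl1, the scaffold that receives BUB1 and BUB3, had -0.07 and -0.13. Both passed without untreated replicate 1, at -0.13 (adjusted p = 0.0259) and -0.24 (adjusted p = 0.000964). With other single libraries left out their adjusted p reached 0.841 and 0.756. Untreated replicate 1 had 41.8 CPM of Knl1 where replicates 2 and 3 had 55.2 and 52.8 CPM. Without it 3 genes of the class fell.

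The chromosomal passenger complex corrects faulty attachments and later guides cytokinesis. All 3 of its genes on the list fell, beside 13.5% of all genes tested, with a median log2 fold change of -0.21. Birc5, the gene of survivin, had 144, 122 and 118 CPM untreated and 105, 106 and 100 CPM after HOCl, 20.7% lower (-0.33 ± 0.07, adjusted p = 0.00372). Untreated replicate 1 was the highest Birc5 library, and without it the call remained. Aurkb, the kinase of the complex, had 120, 114 and 113 CPM against 107, 103 and 96.0 CPM (-0.21 ± 0.05, adjusted p = 0.0125). Incenp, its scaffold, had 136, 131 and 133 CPM against 116, 121 and 121 CPM (-0.19 ± 0.05, adjusted p = 0.00941). Neither gene's groups overlapped, but the Aurkb call was lost without HOCl replicate 3 (adjusted p = 0.0777) and that of Incenp without HOCl replicate 1 (adjusted p = 0.0619).

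Of the 5 kinesins, motors that slide and sort microtubules, 2 fell (40.0%, beside 13.5% of all genes tested). The other 3 had log2 fold changes between -0.02 and 0.01. Kif23, a motor of the central spindle, had 85.4, 85.0 and 82.9 CPM untreated and 72.3, 75.8 and 75.8 CPM after HOCl (-0.21 ± 0.05, adjusted p = 0.00797). Kif4, a chromosome-bound motor, had 54.3, 60.1 and 56.9 CPM against 49.8, 51.8 and 51.5 CPM (-0.19 ± 0.06, adjusted p = 0.0241). The groups did not overlap in either gene. Without HOCl replicate 1 neither was called (adjusted p = 0.0554 and 0.105), and the Kif4 call was also lost without HOCl replicate 2 or 3 or untreated replicate 2 or 3 (0.0672 to 0.0976). Kif11, the motor that pushes spindle poles apart, had 127, 146 and 142 CPM untreated and 137, 138 and 144 CPM after HOCl, with overlapping groups (-0.02 ± 0.06, adjusted p = 0.872). Kif2c, which takes microtubules apart, and Kif20a, a motor of cytokinesis, were at -0.01 and 0.01.

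The 4 genes of spindle assembly and cytokinesis gave no call, where 13.5% of all genes tested fell and 14.7% rose. Tpx2, which nucleates microtubules around chromosomes, had 181, 187 and 183 CPM untreated and 181, 178 and 190 CPM after HOCl, fully overlapping (-0.03 ± 0.05, adjusted p = 0.661). Anln, the gene of anillin in the contractile ring, had 186, 203 and 210 CPM against 175, 187 and 191 CPM (-0.14 ± 0.06, adjusted p = 0.0720). At an unadjusted p under 0.05 Anln (0.0230) and Prc1 (0.0447) passed, and by the DESeq2 test none of the 4 did. Without untreated replicate 1 there were 3 calls: Anln at -0.19 (adjusted p = 0.000454), Prc1, which bundles the central spindle, at -0.14 (0.00521), and Ect2, which activates RhoA at the cleavage furrow, at -0.20 (0.000564). With other single libraries left out the adjusted p of Anln, Prc1 and Ect2 reached 0.276, 0.328 and 0.443.

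In the chromosome structure class Top2a and Smc2 fell (66.7% of the class, beside 13.5% of all genes tested) and Smc4 did not pass. Top2a (ENSMUSG00000020914, chr11:98992943-99024189), the most counted of the 43 genes, had 449, 488 and 483 CPM untreated and 360, 384 and 402 CPM after HOCl, 20.9% lower (-0.34 ± 0.05, adjusted p = 0.000699). Smc2 (chr4:52439243-52488260) had 192, 211 and 201 CPM against 162, 168 and 177 CPM, 17.5% lower (-0.28 ± 0.05, adjusted p = 0.00195). Both calls held without each of the 6 libraries. Smc4, which forms the condensin core with Smc2, had 137, 139 and 136 CPM untreated and 133, 133 and 157 CPM after HOCl (0.01 ± 0.06, adjusted p = 0.935). The high value was that of HOCl replicate 3, the library with 27.5 CPM of T cell markers, and Smc4 stood at 1018 and 1663 CPM in untreated T cells; the part of these in that value was not tested. Without HOCl replicate 3 the log2 fold change of Smc4 was -0.07 (adjusted p = 0.407).

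For the APC/C and chromatid separation, 2 of 4 genes fell, and the median was -0.16. Cdc20 (chr4:118432901-118437352) had 141, 131 and 131 CPM untreated and 124, 125 and 119 CPM after HOCl (-0.16 ± 0.05, adjusted p = 0.0333). Espl1, which encodes separase, the protease that cuts cohesin, had 101, 104 and 103 CPM against 89.3, 94.3 and 95.2 CPM (-0.17 ± 0.05, adjusted p = 0.0208). The groups were apart in both genes, but neither call held without any 1 of the HOCl libraries or without untreated replicate 3 (Cdc20 0.0628 to 0.153, Espl1 0.0540 to 0.119), that of Espl1 also without untreated replicate 2 (0.0616) and that of Cdc20 without TMM scaling (0.0666). Ube2c, the ubiquitin-conjugating enzyme that works with the APC/C, had 111, 107 and 103 CPM against 98.1, 102 and 94.5 CPM. Its groups did not overlap, and at -0.15 ± 0.05 with an adjusted p of 0.0511 it lay just outside the threshold. Without untreated replicate 1 the adjusted p of Ube2c was 0.0388, and with other single libraries left out it reached 0.211. Pttg1 had 25.6, 21.1 and 22.0 CPM untreated and at most 21.7 CPM in the HOCl libraries (-0.18 ± 0.08, adjusted p = 0.123), with untreated replicate 1 above the rest.

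Foxm1 and Mki67 did not pass the threshold, and both passed without untreated replicate 1 and with no filter on low counts. Foxm1, a transcription factor that acts on many of the other genes, had 222, 256 and 250 CPM untreated and 223, 223 and 224 CPM after HOCl (-0.15 ± 0.05, adjusted p = 0.0620). Mki67 had 316, 412 and 396 CPM untreated and 316, 310 and 362 CPM after HOCl (-0.21 ± 0.09, adjusted p = 0.111). In each gene the first untreated library lay at the level of the treated ones and the other two above them. Without it Foxm1 was -0.20 (adjusted p = 3.72e-05) and Mki67 -0.32 (adjusted p = 0.00124), and with no filter they were -0.15 (adjusted p = 0.0412) and -0.22 (adjusted p = 0.000830). With other single libraries left out their adjusted p reached 0.223 and 0.321. With all 6 libraries both had an unadjusted p under 0.05 (0.0189 and 0.0416), and by the DESeq2 test Mki67 passed (adjusted p = 0.0395).

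**Figure D4:**
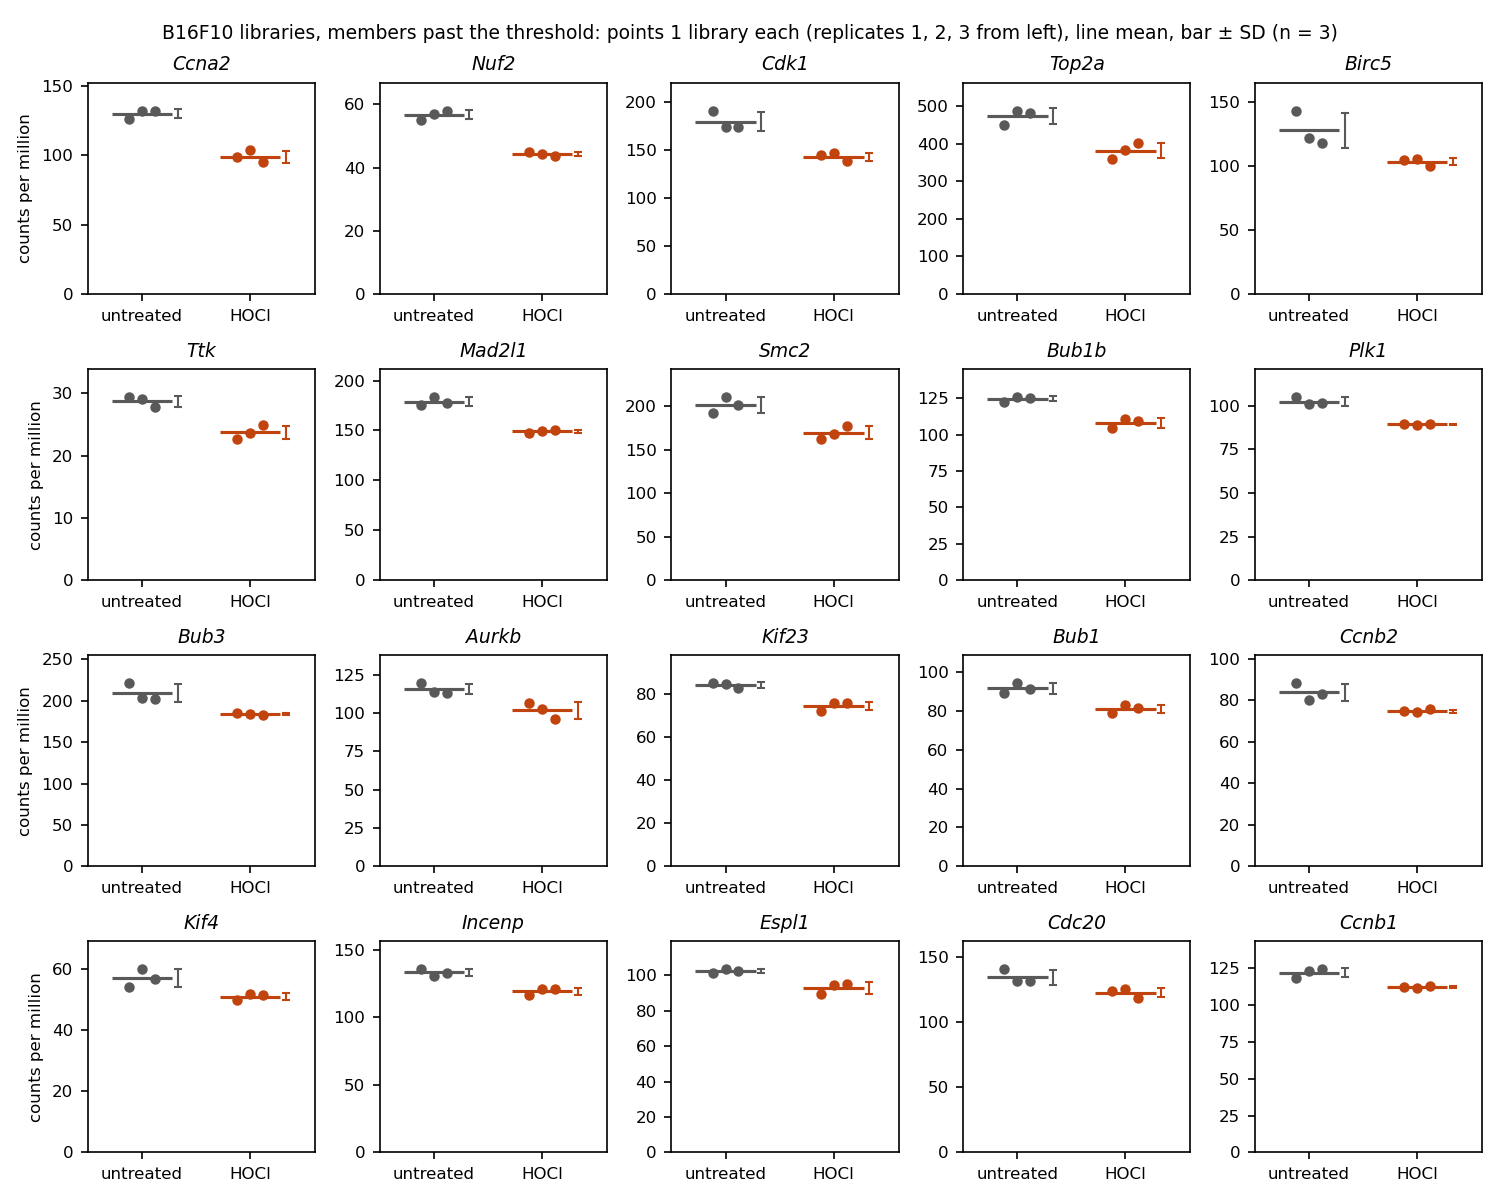
CPM of the 20 mitosis genes that fell in B16F10, 1 point per library, with the mean (line) and ± SD (bar, n = 3) of each group and axes that start at 0. In each panel the 3 HOCl points lie below the 3 untreated points, by distances from the 25.3% of Ccna2 down to the 9.86% of Ccnb1. That order was found in 18.4% of all genes tested, and these 20 genes were picked by their calls in the same libraries.

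How far a gene dropped had a weak relation to its exon length and to its level. Across the 43 genes, which are not independent replicates and share the same 6 libraries, the log2 fold change had a Pearson r of 0.16 and a Spearman rho of 0.14 with log2 exon length. With the log2 untreated level, r was -0.24 and rho -0.29. These values were not tested, and they include untreated replicate 1, which differed by exon length. Some of the genes overlap others in the GENCODE annotation, among them Ccna2 (with Exosc9), Cdc20 (Elovl1), Kif4 (Pdzd11), Bub3 (Fgfr2), Cdc25b (Spef1), Ube2c (Tnnc2), Prc1 (Rccd1), Foxm1 (Tex52) and Kif20a (Cdc23). The strand setting of the counting is not given in the sources used here, so reads from such pairs cannot be told apart.

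A second list of 107 mitosis genes outside the 43 gave 41 that fell, 8 that rose and a median log2 fold change of -0.10. These were 38.3% and 7.48% of the list, beside 13.5% and 14.7% of all genes tested and a median of -0.01 over them. Without untreated replicate 1, 51 fell and 17 rose, and without HOCl replicate 1, 25 and 6; with HOCl replicate 2 or 3 left out, 4 and 3 rose. Of its 6 groups, mitotic entry kinases and phosphatases had the highest share that fell, 9 of 14, with a median of -0.26. Pbk, a mitotic kinase, had 88.1, 81.9 and 79.0 CPM untreated and 60.3, 59.7 and 58.9 CPM after HOCl, a log2 fold change of -0.50. Cks1b, a small subunit that binds CDK1, was at -0.44, with 73.8, 62.6 and 61.0 CPM against 48.6, 50.4 and 49.7 CPM.

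The further checkpoint genes split. Of 8, 3 fell and 1 rose (37.5% and 12.5%, beside 13.5% and 14.7% of all genes tested). Mad1l1, which encodes MAD1, the receptor of MAD2 at kinetochores, had 47.7, 42.3 and 42.0 CPM untreated and 34.1, 32.9 and 30.2 CPM after HOCl (-0.47 ± 0.07, adjusted p = 0.000547). Mad2l1bp, the gene of p31comet, which takes MAD2 out of the checkpoint complex, had 16.6, 15.6 and 16.7 CPM against 23.6, 23.0 and 23.5 CPM (0.49 ± 0.07, adjusted p = 0.000253). In every treated library Mad2l1 and Mad1l1 lay below, and Mad2l1bp above, all untreated ones. Of the 16082 genes tested, 2966 lay below in this way and 4050 above. Whether the changes of these genes are linked was not tested. Trip13, the ATPase that works with p31comet, fell by 0.25 on the log2 scale (adjusted p = 0.0115), a call lost without HOCl replicate 1 or 3 (0.0573 and 0.0566).

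Of 29 further centromere and kinetochore genes 13 fell and 3 rose (44.8% and 10.3%, beside 13.5% and 14.7% of all genes tested). Cenpm (-0.44) and Cenph (-0.44) of the inner kinetochore fell most, and Cenpl (0.28) and Sgo1 (0.26), the shugoshin that protects centromeric cohesin, rose; the Cenpl call was lost without HOCl replicate 1 or 3 or untreated replicate 2 or 3 (adjusted p 0.0642 to 0.117). Among 17 condensin and cohesin genes 8 fell and 1 rose (47.1% and 5.88%). Ncaph, the kleisin of condensin I, and Ncapd3 of condensin II were both at -0.28, and Wapl, which releases cohesin from chromatin, was at 0.22, a call lost without HOCl replicate 2 or 3 (0.0556 and 0.0855). Of 23 kinesin, spindle and cytokinesis genes 6 fell and 2 rose (26.1% and 8.70%), with a median of 0.00. Kif15 (-0.36) and Kif22 (-0.30) fell, and Ckap2l (0.23) and Kif18b (0.18) rose. The call of Kif22 was lost without HOCl replicate 1 (adjusted p = 0.0535). Those of Ckap2l and Kif18b were lost without any 1 of the HOCl libraries (0.0843 to 0.156 and 0.0502 to 0.0769), and that of Ckap2l also without untreated replicate 3 (0.0525). Among 16 APC/C core genes 2 fell, Anapc11 (-0.31) and Ube2s (-0.27), and 1 rose, Cdc27 (0.26). These shares, 12.5% and 6.25%, were no higher than the 13.5% and 14.7% of all genes tested. The call of Ube2s was lost without HOCl replicate 3 (adjusted p = 0.0791) and that of Cdc27 without HOCl replicate 2 or 3 (0.0723 and 0.0704).

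Factors that act on the promoters of mitosis genes gave 3 that fell and 4 that rose of 18. These shares, 16.7% and 22.2%, were near the 13.5% and 14.7% of all genes tested. Without untreated replicate 1 it was 6 that fell, and without any 1 of the HOCl libraries 1 that rose. Mybl2, which encodes B-MYB, had 49.7, 50.4 and 49.1 CPM untreated and 41.4, 38.5 and 42.5 CPM after HOCl (-0.31 ± 0.06, adjusted p = 0.00163). Lin52, a subunit shared by DREAM and the B-MYB complex, had 13.1, 12.8 and 11.7 CPM against 15.9, 16.6 and 16.3 CPM (0.34 ± 0.08, adjusted p = 0.00592). Rbl2, the gene of the pocket protein p130 of DREAM, had 57.9, 68.5 and 71.2 CPM against 80.2, 75.8 and 79.2 CPM (0.23 ± 0.07, adjusted p = 0.0326). The groups did not overlap in any of these genes, though the Rbl2 call was lost without any 1 of the HOCl libraries (0.0700 to 0.118). Of the 16082 genes tested, 2966 had all HOCl libraries below all untreated ones and 4050 had them all above. Trp53 was at -0.21 (adjusted p = 0.00783; 0.0543 without HOCl replicate 3). Cdkn1a, the p53 target that inhibits cyclin-dependent kinases, had 324, 275 and 278 CPM untreated and 343, 340 and 332 CPM after HOCl (0.18 ± 0.06, adjusted p = 0.0442). Its call was lost in all leave-one-out fits but that without untreated replicate 1 (0.0865 to 0.145).

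S phase genes, which are made before the mitosis genes in each cycle, had a lower median. Of 23, 22 fell and 0 rose, also at an unadjusted p under 0.05 and by the DESeq2 test. By the DESeq2 test 2160 of all genes fell and 2411 rose, and at an unadjusted p all genes were not counted. Their median log2 fold change was -0.50. Of all genes tested 13.5% fell and 14.7% rose, with a median of -0.01. The count of S phase genes that fell was 22 in every leave-one-out fit. The 2 largest drops were those of E2f1 (-0.73), a factor that drives entry into S phase, and Gins2 (-0.66), a part of the replicative helicase. E2f1 had 90.0, 84.5 and 92.5 CPM untreated and 56.0, 54.9 and 52.8 CPM after HOCl. The ranges of the 2 lists overlapped, from -0.73 to -0.16 for the S phase genes and from -0.42 to 0.08 for the 43 mitosis genes. The difference between the lists was not tested.

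**Figure D5:**
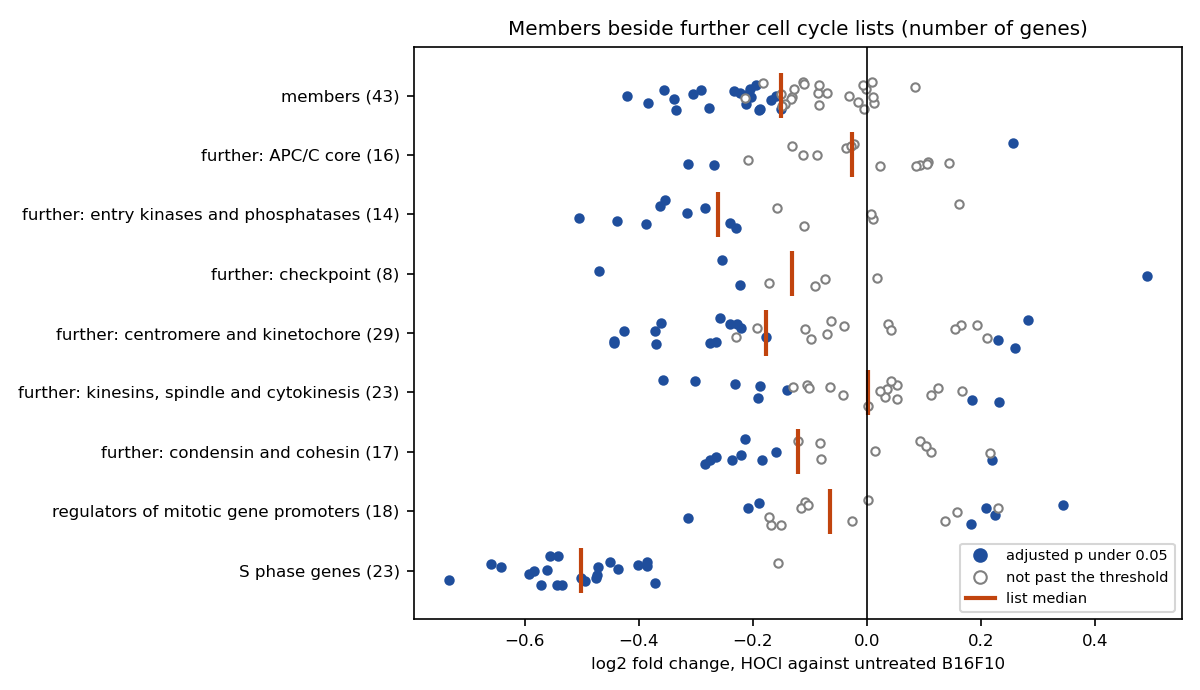
Log2 fold change in B16F10 of the 43 mitosis genes, of 6 further mitosis lists, of promoter regulators and of S phase genes, 1 point per gene, with the list median (orange bar) and points spread vertically to keep them apart. The mitosis genes centre on -0.15 and the S phase genes on -0.50, and some genes of the further lists lie past 0.2.

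In the library labelled T cell HOCl most mitosis genes stood at levels between those of untreated T cells and B16F10. It is a single library, so there is no test and no replicate check. Of the 43 genes, 37 were above both untreated T cell libraries and 6 below both: Cdc25b, Bub3, Cenpa, Ndc80, Smc4 and Pttg1. Of the 18352 genes tested in untreated cells, 51.9% were above both and 35.4% below both. Cdk1 had 52.5 CPM, against 2.30 and 1.17 CPM in untreated T cells. Top2a had 149 CPM, against 18.3 and 8.64 CPM. Of Smc4, the gene that untreated T cells hold most of, 167 CPM were left against 1018 and 1663 CPM.

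Markers of melanocytes and of other cell types were also higher in that library than in untreated T cells. Each of the 8 melanocyte markers stood there at 25.4 to 30.9% of its mean in untreated B16F10 (median 27.3%), with none at 0. The 5 B cell markers summed to 132 CPM there, against 20.5 and 29.3 CPM in untreated T cells, and the 5 macrophage markers to 44.5 CPM, against 16.001 and 11.8 CPM. The 5 erythroid markers summed to 32.8 CPM, against 2.24 and 10.5 CPM, and the 5 fibroblast markers to 63.0 CPM, against 1.02 and 1.36 CPM, more than the 16.1 to 19.8 CPM of B16F10. None of these markers was at 0 there. The 43 mitosis genes stood at 24.9 to 189% of theirs, with a median of 37.9%, and 8 were above 60%, among them Cdc25c at 189%, Smc4 at 121% and Espl1 at 90.3%. Cdc25c had 42.1 CPM there, more than the 20.1 to 23.1 CPM of the B16F10 libraries and the 0.160 and 0.192 CPM of untreated T cells. The library also had counts in 44225 genes, against 22855 to 25907 in the others, and 37.4% mitochondrial counts. The part of these markers, depth and mitochondrial share in these levels was not tested.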

How the data were processed

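Total RNA of 9 mouse libraries was sequenced on an Illumina platform, per the labels. The deposited files hold raw counts of reads per gene made by the authors, not normalised; the submitters' processing notes name genome build mm10, the aligner STAR 2.7.1a, the counter featureCounts 1.6.0, DESeq2 1.22.2 and FastQC 0.11.8. For strand, annotation release and filters, the setting is not given in the sources used here. From the authors' deposited table the log2 fold change and adjusted p-value were used only to set calls side by side. Of 54838 genes, 54809 were found by ID in GENCODE M21 (GRCm38), which gave coordinates (1-based) and exon lengths.

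Each comparison was fitted on all genes with edgeR 4.0.16 in R 4.3.3: filterByExpr by group, TMM scaling, glmQLFit (robust) with glmQLFTest, and p-values adjusted by Benjamini-Hochberg over all genes tested, with a threshold of 0.05. SE was computed as the log2 fold change over the square root of the F statistic. The B16F10 test used its 6 libraries, the comparison of untreated cells 3 and 2. A check on simulated counts preceded the fits. A gene at 0 could stand at up to 3 counts (0.0489 to 0.0654 CPM, 0.234 CPM in the T cell HOCl library), a limit that covers counting error only. Promoter windows came from RefSeq. All 43 genes could be named, with library values for each gene past the threshold; other lists gave the 2 largest falls and 2 largest rises past the threshold per list, plus Cdkn1a, Trp53 and Mybl2. The genes and lists were chosen with earlier results of these data known. Alternatives were glmTreat against 1.5-fold, all 9 libraries in 1 fit, DESeq2 1.42.0 as the test or for its size factors, scaling by library totals alone, either no filter or a stricter one (50 mean counts and 1 CPM), a replicate block, and leaving out each library.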

Additional observations from a re-analysis of the deposited data

Results flagged for a closer look

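For 19 of the 20 mitosis genes that fell in B16F10 (all but Bub3), every B16F10 HOCl library lay below every untreated one while the T cell HOCl library lay above both untreated T cell libraries. This contrast was not tested, since the T cell HOCl group has 1 library. The 20 genes were picked because they fell in B16F10. Of the 18352 genes tested in untreated cells, 51.9% lay above both untreated T cell libraries in the T cell HOCl library. The levels in that library were 39.4 CPM for Ccna2, 38.0 for Ccnb1, 31.8 for Ccnb2, 52.5 for Cdk1 and 30.5 for Plk1. The checkpoint genes had 38.7 CPM (Bub1), 42.8 (Bub1b), 58.0 (Mad2l1) and 18.4 (Ttk). Nuf2 had 42.8 CPM, Aurkb 28.9, Birc5 49.4, Incenp 49.1, Kif23 42.4 and Kif4 22.3. The remaining levels were 149 CPM for Top2a, 72.1 for Smc2, 39.2 for Cdc20 and 92.5 for Espl1. In the same library the melanocyte markers summed to 6759 CPM, against 102 and 25.7 CPM in untreated T cells; their part in these levels was not tested.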

How the results depend on the processing

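Counts of calls differed between settings. With all 9 libraries in 1 fit, 0 of the 43 mitosis genes fell, 26 of all genes fell and 11 rose, 0 further mitosis genes fell and 0 rose, 1 S phase gene fell, and 0 regulators fell and 0 rose. Against a 1.5-fold change (glmTreat) these counts were 0, 45, 28, 0, 0, 0, 0 and 0, and the count of mitosis genes that fell was 0 in every class under both settings. Among regulators 5 fell with no filter and 5 with the replicate block. For APC/C and separation genes 1 fell without TMM. Of Foxm1 and Mki67, 1 fell by the DESeq2 test, 2 with no filter and 2 with the block. In spindle assembly and cytokinesis 1 fell with the block.

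Same-numbered B16F10 libraries did not deviate together (r 0.0352, -0.00347 and 0.00148). With so few libraries this cannot settle whether same-numbered ones were handled together. With the replicate block 24 of the 43 genes fell and 0 rose, and in the comparison of untreated cells 1 gene was lower in B16F10; there the calls of Pttg1 (adjusted p = 0.245), Cenpa (0.0750) and Bub3 (0.0822) were lost, and after HOCl Foxm1 (0.0278) and Mki67 (0.0180) gained one.

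Leaving out 1 library at a time, 12 to 29 of the 43 genes fell and 0 rose, with a median log2 fold change of -0.17 to -0.15. Over all genes 1410 to 2634 fell and 1605 to 2819 rose. Of the further mitosis genes 25 to 51 fell and 3 to 17 rose, and of regulators 2 to 6 fell and 1 to 5 rose. By class the range was 3 to 6 for cyclins and entry kinases, 4 to 5 for the checkpoint, 1 to 3 for kinetochore genes, 2 to 3 for the passenger complex, 0 to 2 for kinesins, 0 to 3 for spindle assembly, 2 in each fit for chromosome structure, 0 to 3 for the APC/C class and 0 to 2 for Foxm1 and Mki67. In untreated cells 37 to 39 genes were higher in B16F10 and 2 to 4 lower. Of the values of single genes named here, 1173 kept their side of the threshold, 158 lost the call and 22 gained one. None that was called reversed. Some genes that were not called changed sign, such as Ccnf (-0.04 to 0.05 over the leave-one-out fits) and Smc4 (-0.07 to 0.05). The causes of these changes were not tested.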
